A study of Mus musculus and Homo sapiens with 47 samples.

Results

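The enteroendocrine cells of the mouse intestinal epithelium were picked out of 3 single-cell RNA libraries by a gate on 6 genes of the lineage. A barcode was kept as a cell with at least 2500 unique molecular identifiers (UMIs, 1 per captured RNA molecule), at least 500 genes and at most 20% of UMIs from mitochondrial genes. A kept cell entered the gate when Chga, Chgb, Neurod1, Neurog3, Insm1 and Pax4 together gave at least 6 UMIs with at least 2 of the 6 genes detected. The gate held 250 of 11289 cells: 111 of 3833 at day 7, 33 of 4664 at day 12 and 106 of 2792 at day 16.

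The mice were of mixed B6;129 background and carried both floxed alleles of Eed, a core subunit of Polycomb repressive complex 2 (PRC2), together with EGFP and a tamoxifen-inducible Cre expressed from Lgr5 (genotype Eed F/F; Lgr5EGFP-IRES-CreERT). All 3 groups had this genotype and were dosed with tamoxifen daily for 5 days and every other day afterwards. By label they differ in the day alone, and the event from which days run and the ages of the mice were not stated. GFP-positive cells were sorted from epithelium of the proximal part of the intestine, so a cell could be recombined only if it, or a cell it descended from, had expressed the Cre from Lgr5. Each day was 1 droplet-based 3' library of an unstated number of animals, with no wild-type single-cell library among the groups. The days were therefore compared without a test, and every interval below covers counting error only.

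Enteroendocrine cells are the hormone-secreting cells of the gut lining and renew continuously from the Lgr5-expressing stem cells of the crypt. A secretory progenitor switches on the transcription factor Neurog3 for a short time, then Neurod1, Insm1 and Pax4, and later fills its granules with chromogranins (Chga, Chgb) and hormones. Mature cells are named for their products: enterochromaffin cells make serotonin (through Tph1) and often the tachykinin precursor Tac1, and other types make Cck, Gcg, Gip, Sst, Ghrl, Sct, Nts or Pyy. PRC2 places the silencing mark H3K27me3 on histone H3.

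The promoters of 5 of these genes are shown because the day comparison turns on them: the transient progenitor factor Neurog3, the granule proteins Chga and Chgb, and the hormones Sst and Gip. Each line holds the 250 bases before the RefSeq start (assembly GRCm38.p6), 5' to 3' on the gene's strand, at chr10:62132840-62133089 (plus strand) for Neurog3, chr12:102554691-102554940 (plus) for Chga, chr2:132781392-132781641 (plus) for Chgb, chr16:23890845-23891094 (minus) for Sst and chr11:96024295-96024544 (plus) for Gip. Capitals mark every CANNTG, the E-box core bound by basic helix-loop-helix factors such as Neurog3 and Neurod1, and every TGACGT, the core of the cyclic AMP response element, on either strand. The palindrome TGACGTCA holds that core on both strands.
Neurog3: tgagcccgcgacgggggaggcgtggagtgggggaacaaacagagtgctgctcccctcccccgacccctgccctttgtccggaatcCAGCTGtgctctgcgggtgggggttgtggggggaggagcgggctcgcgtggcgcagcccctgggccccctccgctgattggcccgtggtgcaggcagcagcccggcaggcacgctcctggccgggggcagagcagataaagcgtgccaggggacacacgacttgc
Chga: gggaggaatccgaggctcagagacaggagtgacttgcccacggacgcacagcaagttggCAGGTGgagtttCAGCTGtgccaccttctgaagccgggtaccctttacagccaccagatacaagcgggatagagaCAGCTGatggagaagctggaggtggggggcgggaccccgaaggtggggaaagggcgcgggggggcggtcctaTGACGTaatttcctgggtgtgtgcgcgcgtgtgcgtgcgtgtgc
Chgb: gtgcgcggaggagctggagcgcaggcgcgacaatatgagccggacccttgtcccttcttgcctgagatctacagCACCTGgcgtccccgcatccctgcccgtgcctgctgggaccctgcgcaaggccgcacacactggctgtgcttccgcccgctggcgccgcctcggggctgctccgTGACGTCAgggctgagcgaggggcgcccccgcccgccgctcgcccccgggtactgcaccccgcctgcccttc
Sst: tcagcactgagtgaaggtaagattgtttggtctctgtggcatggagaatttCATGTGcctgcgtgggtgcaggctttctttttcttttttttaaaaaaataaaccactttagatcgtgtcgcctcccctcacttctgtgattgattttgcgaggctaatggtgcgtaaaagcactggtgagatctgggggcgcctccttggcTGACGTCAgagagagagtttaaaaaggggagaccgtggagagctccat
Gip: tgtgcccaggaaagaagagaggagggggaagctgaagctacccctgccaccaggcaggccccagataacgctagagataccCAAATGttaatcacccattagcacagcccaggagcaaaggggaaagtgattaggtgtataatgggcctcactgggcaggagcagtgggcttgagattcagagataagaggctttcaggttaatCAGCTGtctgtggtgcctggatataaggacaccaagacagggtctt
All 5 windows held a CANNTG, at 1 place in Neurog3, Chgb and Sst, 2 in Gip and 3 in Chga, and 66.2% of 32851 RefSeq promoter windows of that length hold one too. The whole TGACGTCA stood 72 bases before the start of Chgb and 48 bases before that of Sst, against 1.55% of all windows. Chga had the shorter TGACGT 44 bases before its start, which 6.47% of windows have, and Neurog3 and Gip had neither. These matches describe letters in a window and are no evidence of binding. The submitters' notes name another build, mm9, and no coordinate of the deposited files was used.

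The libraries held 40817192 to 46071956 UMIs over all barcodes, and the kept cells had median depths of 7945 UMIs at day 7, 7572 at day 12 and 11875 at day 16. Gated cells were shallower than the other cells of their day: their medians were 4623 against 7989 UMIs at day 7, 5900 against 7581 at day 12 and 6850 against 11972 at day 16. Shares of cells are therefore given after thinning each cell to 2500 UMIs, unless stated otherwise. Only 1 to 4 barcodes were shared between any pair of libraries. Eed itself stood at 53, 23.2 and 25.5 CPM (counts per 1000000 UMIs of the gated cells) at days 7, 12 and 16, from 45, 6 and 23 UMIs, and at 54.4, 27.5 and 26.6 CPM in the other cells. A 3' count may lie outside the deleted exons, so its level is no check of the recombination. Xist, the RNA that coats the inactive X of females, had UMIs, without thinning, in all 111 and all 33 gated cells at days 7 and 12 and in 1 of 106 at day 16 (109, 32 and 0 cells when thinned), while the Y-linked Ddx3y had 0, 0 and 58 UMIs there. The other cells showed the same split, so the day and the sex of the animals cannot be told apart in any comparison with day 16.

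Gated cells made up 2.9% of cells at day 7 (95% exact Clopper-Pearson interval 2.39 to 3.48), 0.708% at day 12 (0.488 to 0.992) and 3.8% at day 16 (3.12 to 4.57). Day 12 lay below both other days beyond counting error. When every cell was thinned to 2500 UMIs before gating, the shares were 1.83% (1.43 to 2.3), 0.407% (0.245 to 0.635) and 3.15% (2.54 to 3.87), with day 16 above day 7. With at most 10% mitochondrial UMIs the day 16 share was 9.68%, 85 of only 878 cells left, and with at least 5000 UMIs per cell the day 7 share was 1.61%. Fewer enteroendocrine cells in the epithelium and fewer of them passing the GFP sort cannot be told apart.

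**Figure D1:**
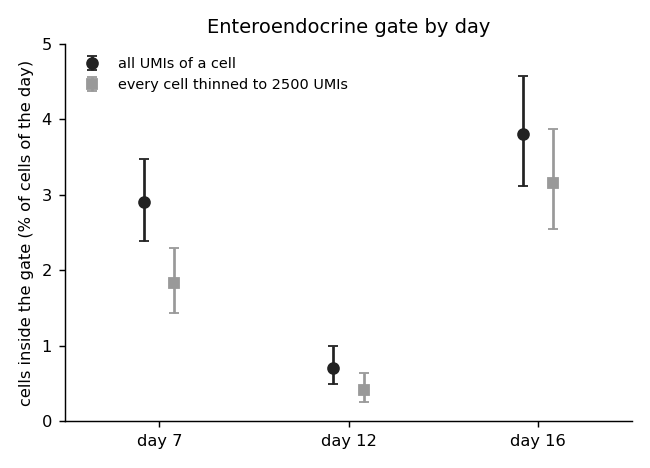
Share of kept cells inside the gate (vertical axis, % of cells of the day) at days 7, 12 and 16, with all UMIs of a cell (black circles) and after thinning every cell to 2500 UMIs (grey squares); bars are exact 95% intervals of counting error. Day 12 is lowest in both series, at 0.708% and 0.407%.

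The 6 gate genes chose the members, so their levels are a description. Members carried 6 to 886 UMIs of the 6 genes at day 7 with a median of 17, 6 to 233 with a median of 18 at day 12, and 6 to 910 with a median of 95.5 at day 16. Around the limit the cells were few: with 5 UMIs of at least 2 genes, 9, 3 and 2 cells stood just outside at days 7, 12 and 16, and with 6 UMIs, 6, 3 and 3 cells stood just inside. A further 5, 3 and 3 cells had 6 or more UMIs of 1 gene alone and stayed out. Most cells had no UMI of the 6 genes at all, 3613, 4530 and 2474 of them.

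Within the gate the progenitor factors and the granule proteins followed different courses. Neurog3, the factor that commits a cell to the endocrine lineage, was at 739, 1002 and 512 CPM at days 7, 12 and 16. Its targets Neurod1 (370, 259 and 382 CPM) and Insm1 (244, 286 and 426 CPM), both transcription factors of endocrine differentiation, and Pax4 (67.2, 85.1 and 78.7 CPM), a factor of subtype choice, each varied less between the days than the granule genes. The granule protein Chga was at 720, 569 and 3009 CPM, and Chgb at 3440, 2089 and 19764 CPM. At least 3 thinned UMIs of Chga were found in 18.9%, 15.2% and 55.7% of members, and of Chgb in 33.3%, 27.3% and 67%. In all other cells these 6 genes lay between 0.0291 and 5.49 CPM.

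The label of the gate held against 11 endocrine markers it did not use (Cpe, Pcsk1, Pcsk1n, Scg2, Scg3, Scg5, Fev, Isl1, Pax6, Rfx6 and Nkx2-2). At least 1 thinned UMI of them was found in 74.8% of the gated cells at day 7 (83 of 111), 84.8% at day 12 (28 of 33) and 86.8% at day 16 (92 of 106), against 2.63%, 4.06% and 2.23% of other cells. At the depth deposited the shares were 90.1%, 93.9% and 96.2% against 7.25%, 9.24% and 8.3%. After thinning, at least 3 of the 11 markers were detected in 39.6%, 39.4% and 64.2% of gated cells and in 0.134%, 0.173% and 0% of the others. The 0 of 2686 cells at day 16 allows a share of up to 0.137% (exact upper bound).

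Against all other cells of the same day, 232 of 8672 genes with at least 20 UMIs in gated cells (2.68%) were at least 4-fold higher on each of the 3 days; the gate made this contrast, so nothing is read from that count. Beside gate genes, genes of large lowest-day ratio were Fev, a factor of serotonin cells (117, 77.4 and 214 CPM against 0.144, 0.05 and 0.174 CPM), the hormone genes Gcg and Cck, Tph1, the calcium sensor gene Scgn, the transcription factor gene Rfx6, the granule protein gene Scg3, the exocytosis gene Baiap3 and Gfra3, a neurotrophic factor receptor (61.3, 81.3 and 216 CPM against 0.231, 0.05 and 0.639 CPM). Of the lists by role, 10 of 13 measured genes of granules and prohormone processing, 9 of 18 endocrine transcription factors, 8 of 13 exocytosis genes, 6 of 11 peptide hormones and 5 of 12 early progenitor genes were among the 232. None of the 34 measured cell cycle genes or 21 stem cell genes was. The gate and the minimum of 20 UMIs in gated cells shaped these list counts too, so they are a description and no support. Summed over the cell cycle list, gated cells had 1539, 1176 and 1696 CPM against 3044, 2184 and 3263 CPM in other cells.

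Hormone RNA was sparse at days 7 and 12 and abundant at day 16. The 16 genes counted as hormone genes were 15 peptide hormones and Tph1, and a cell was called positive with at least 3 thinned UMIs. At least 1 was positive in 10 of 111 gated cells at day 7 (9.01%, interval 4.41 to 15.9), 5 of 33 at day 12 (15.2%, 5.11 to 31.9) and 64 of 106 at day 16 (60.4%, 50.4 to 69.7). The same call marked 0.134%, 0.0432% and 1.34% of other cells, and 0.0806%, 0.0216% and 0.149% when Sct was left out. Without thinning, the shares of gated cells were 19.8%, 33.3% and 73.6%, with day 16 highest at both depths.

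**Figure D2:**
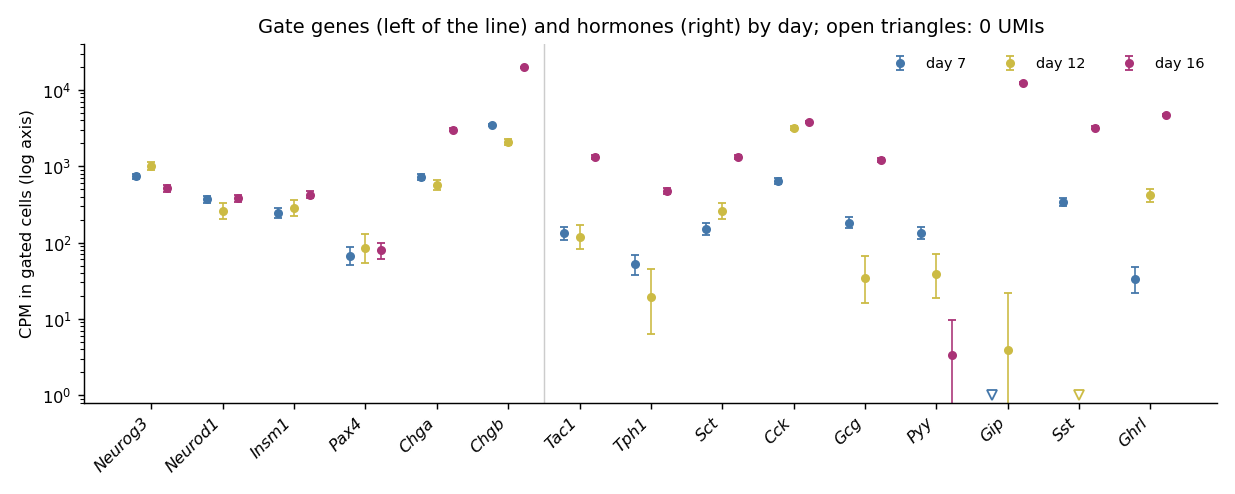
Level in the gated cells of each day (vertical axis, CPM of summed UMIs, log axis) for the 6 gate genes, left of the line, and 9 hormone genes, right of it; points are 1 library each, bars exact 95% Poisson intervals and open triangles 0 UMIs. Gip goes from 0 UMIs at day 7 to 12328 CPM at day 16, while Neurog3 is lowest at day 16.

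Gip, the incretin of K cells, had 0 UMIs at day 7, 1 at day 12 and 11124 at day 16, or 12328 CPM (exact Poisson interval 12100 to 12559). That is at least 3487-fold above 3 UMIs at day 7, and the highest cell held 20.5% of the day 16 UMIs. Sst, the inhibitory hormone of D cells, was at 341, 0 and 3200 CPM, and all 289 UMIs of day 7 came from 1 cell. Ghrl, the precursor of ghrelin, was at 33, 418 and 4694 CPM, and its day 16 level was 142-fold that of day 7 (98.3 to 214). At day 7, 1 cell held 27 of its 28 UMIs, and at day 12, 1 cell held 69 of 108. At day 16 the highest cells held 1977 and 1307 of 4236 UMIs. The interval of the fold leaves out this spread between cells.

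Cck, the satiety hormone of I cells, was at 639, 3180 and 3761 CPM, but 2 cells held 267 and 261 of its 542 UMIs at day 7 and 1 cell held 819 of 822 at day 12. Gcg, from which GLP-1 is cut, was at 182, 34.8 and 1198 CPM, with 1 cell holding all 154 UMIs of day 7 and 1 holding 53.7% of those of day 16. The early-day levels of Sst, Cck and Gcg thus describe single cells, as does the day 7 level of Ghrl. Sct, the precursor of secretin, was found in more cells, at 151, 259 and 1312 CPM, though 1 cell held 50 of the 67 UMIs of day 12. Its UMIs were found in 17.1%, 24.2% and 54.7% of gated cells, beside 1.37%, 0.821% and 5.51% of other cells.

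The enterochromaffin products were Tac1, at 132, 120 and 1334 CPM, and Tph1, the rate-limiting enzyme of serotonin synthesis, at 51.9, 19.3 and 479 CPM. Both had UMIs in members of every day, with Tac1 in 9.01%, 9.09% and 35.8% of cells (3 cells at day 12, 1 of which held 22 of the 31 UMIs) and Tph1 in 5.41%, 6.06% and 26.4%. Pyy, a hormone of L cells, ran the other way, at 134, 38.7 and 3.32 CPM, but 111 of its 114 UMIs at day 7 lay in 1 cell. Nts had 93 UMIs at day 16, from 1 cell with a thinned UMI, and none before. Insl5 and Penk had 0 UMIs in gated cells on all 3 days, which allows up to 4.35, 14.3 and 4.09 CPM each at days 7, 12 and 16 (exact upper bounds). Gast and Ucn3 gave 2 and 3 UMIs at day 16 alone, Iapp gave 25, 11 and 19 UMIs and Gal 4, 14 and 3.

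Free RNA was measured in barcodes of 10 to 100 UMIs, where Gip stood at 493 CPM, Chgb at 602 and Sst at 88.2 at day 16. The other cells of that day held 4.71, 5.49 and 3.78 CPM of these genes, and gated cells held 12328, 19764 and 3200 CPM.

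Many hormone-positive cells of day 16 carried several hormones. Of the 64, 17 were positive for 1 hormone gene, 15 for 2, 26 for 3 and 6 for 4, so 47 (73.4%) had at least 2. At days 7 and 12 the corresponding cells were 4 of 10 and 1 of 5. In the single highest cells of day 16, Gip took 33% of all thinned UMIs of the cell, Sst 20.7%, Ghrl 19.3%, Cck 12.8% and Gcg 7.32%. No doublet caller was run. Without the 5% of cells with most UMIs in each library, the share of hormone-positive cells moved by less than its counting interval on every day. That share counts cells with any hormone, so it cannot show whether cells with several hormones were doublets, which was not tested.

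**Figure D3:**
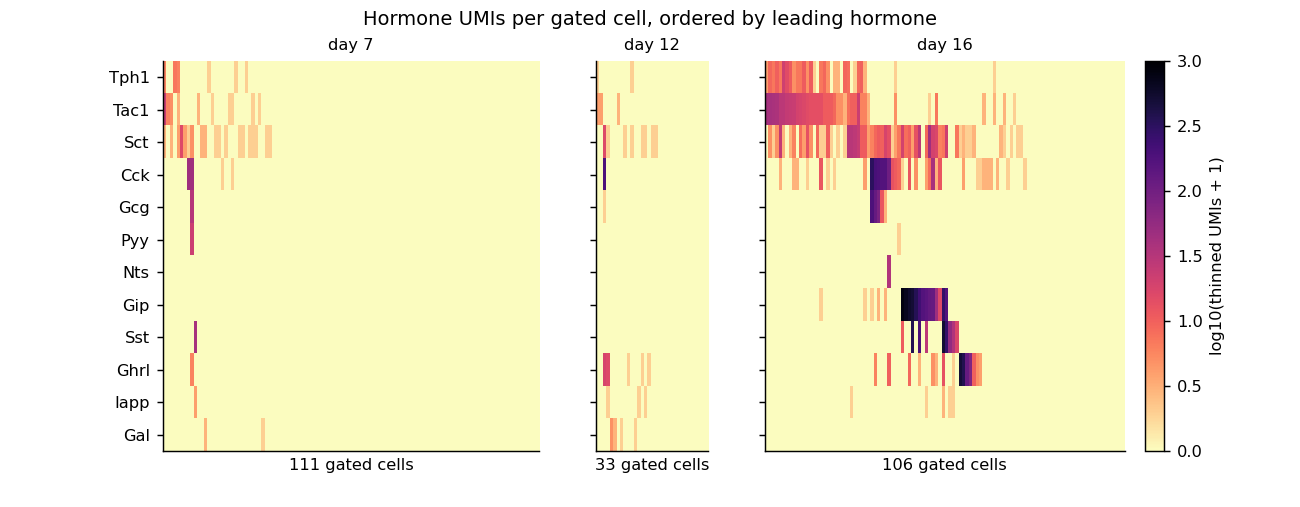
Thinned UMIs of 12 hormone genes (rows) in each gated cell (columns, ordered by the hormone with most UMIs) at days 7, 12 and 16, coloured by log10 of UMIs plus 1. Day 16 shows blocks led by Tac1 with Tph1 and Sct, by Cck, by Gip and by Ghrl, and days 7 and 12 are almost empty.

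By the hormone with most thinned UMIs, the day 16 cells were led by Tac1 in 23, Gip in 12, Cck in 9, Ghrl in 7, Sct in 7, Sst in 5 and Tph1 in 1, with none in 42. At day 7 the 10 positive cells were led by Tac1 in 3, Cck, Sct and Tph1 in 2 each and Sst in 1. The 5 of day 12 were led by Tac1 in 2 and by Cck, Ghrl and Gal in 1 each. Since single cells decide the early counts, the subtypes are described further at day 16 only.

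Serotonin and tachykinin products went together. Of the 21 cells positive for Tph1 at day 16, 20 were positive for Tac1 (95.2%, interval 76.2 to 99.9), beside 29.2% of all gated cells of the day. Of the 31 Tac1-positive cells, 20 had Tph1 and 18 had Sct. The 23 cells led by Tac1 and the 7 led by Sct were alike in some genes and apart in others, such as Fabp5 (below). Tph1, itself one of the hormone calls, was at 2049 and 1759 CPM, with thinned UMIs in 20 of 23 and 5 of 7 cells. Scn3a, a voltage-gated sodium channel, was at 764 and 892 CPM, with UMIs in 20 of 23 and 6 of 7. Vim, an intermediate filament gene better known from mesenchyme, was at 3329 and 1928 CPM there, in 22 of 23 and 5 of 7 cells, and at 65.5 CPM in the 42 cells with no hormone. Fev stood at 535 CPM in the Tac1-led cells (13 of 23), and Ffar2, a receptor of short-chain fatty acids, at 356 CPM (14 of 23). Lmx1a, a transcription factor of serotonin cells named here after its values were seen, had UMIs in 7 of 23.

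Gip, Sst and Cck overlapped in part. Of 14 cells positive for Gip, 13 were positive for Sct, 6 for Sst, 6 for Cck and 1 for Tac1. Of 9 cells positive for Sst, 6 were positive for Gip. All 4 Gcg-positive cells had Cck and Sct, and 15 of 18 Cck-positive cells had Sct. Ghrl stood more apart, with 6 of 12 positive cells carrying no other hormone.

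The hormone groups also differed in transcription factors that no gate or hormone call used. Isl1, a LIM-homeodomain factor, was at 1165 CPM in Cck-led cells (6 of 9 with a thinned UMI), 1065 in Ghrl-led (7 of 7), 768 in Gip-led (10 of 12), 380 in Sst-led (3 of 5), 193 in Sct-led (1 of 7) and 31.8 in Tac1-led cells (2 of 23). Pax6, a paired-box factor, was at 502 CPM in Cck-led (6 of 9) and 213 in Gip-led cells (5 of 12). Hhex, the homeobox factor of D cells, named after its values were seen, had UMIs in 5 of 5 Sst-led and 3 of 12 Gip-led cells. Isl1 was thus found in most cells of the Cck, Ghrl, Gip and Sst groups and in few of the Tac1 and Sct groups.

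Further genes were read in the same hormone groups. Fabp5, a fatty acid binding protein gene also named after its values were seen, was at 10053 CPM in Gip-led (11 of 12), 3118 in Cck-led (8 of 9), 1808 in Sct-led (4 of 7), 1519 in Sst-led (4 of 5) and 210 in Tac1-led cells (5 of 23). Rbp4, the plasma retinol carrier, was at 3774 in Gip-led (11 of 12), 1924 in Sst-led (4 of 5) and 1881 CPM in Cck-led cells (8 of 9). Cnr1, the cannabinoid receptor, was at 213 CPM in Gip-led cells (5 of 12). In Ghrl-led cells Cdkn1a, a cyclin-dependent kinase (CDK) inhibitor, was at 5053 CPM (7 of 7) and the trefoil factor gene Tff3 at 4229 CPM (7 of 7). With 5 to 23 cells in a group from 1 library, these values describe cells of that library.

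**Figure D4:**
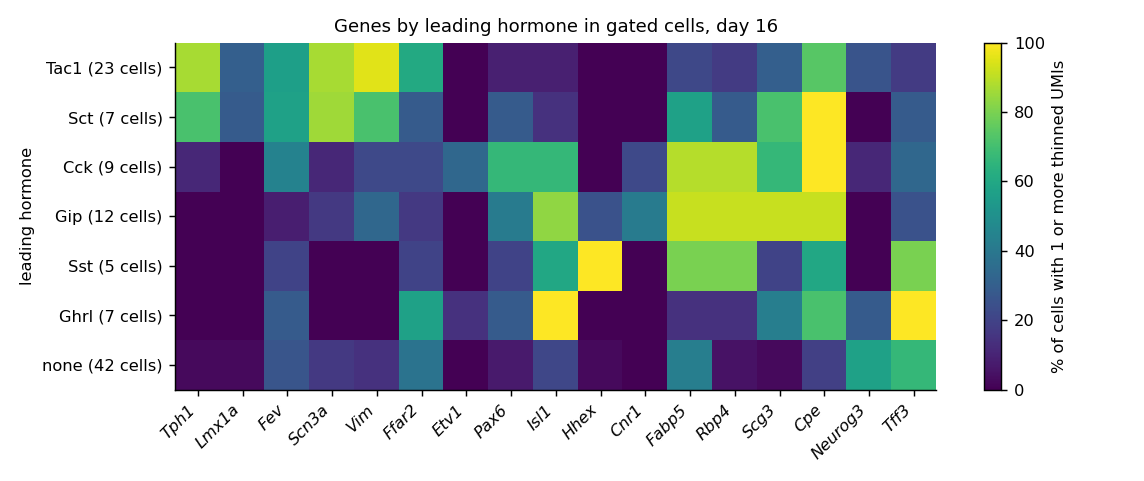
Share of gated day 16 cells with at least 1 thinned UMI (colour, %) of 17 genes (columns) in cells grouped by their leading hormone (rows, with cell numbers). Tph1, Scn3a and Vim are bright in the Tac1 and Sct rows, Isl1 in the Ghrl and Gip rows, Rbp4 and Fabp5 in the Cck, Gip and Sst rows, Hhex in the Sst row and Neurog3 in the row with no hormone.

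The gated cells were also split by Neurog3 (at least 2 thinned UMIs) and Chga (at least 3), as a description since both genes made the gate. Cells with Neurog3 and no Chga by these limits were 45 of 111 at day 7 (40.5%, interval 31.3 to 50.3), 20 of 33 at day 12 (60.6%, 42.1 to 77.1) and 18 of 106 at day 16 (17%, 10.4 to 25.5). Cells with Chga and no Neurog3 were 14.4%, 12.1% and 48.1% (16, 4 and 51 cells). Both were found in 5, 1 and 8 cells, and neither in 45, 8 and 29. Hormones were found in more of the Chga cells than of the Neurog3 cells. At day 16, 45 of the 51 Chga cells were hormone-positive, and 0 of the 18 Neurog3 cells. At day 7 the counts were 4 of 16 and 1 of 45, and at day 12, 2 of 4 and 0 of 20. Hormone-positive cells were not confined to these classes. Of the cells with neither, 4 of 45, 3 of 8 and 14 of 29 were positive at days 7, 12 and 16. Of those with both, 1 of 5, 0 of 1 and 5 of 8 were. The 45 day 7 cells with neither were deep, with a median of 10299 UMIs against 4105 in the Neurog3 cells, so the 6 UMIs of the gate were a smaller share of their RNA.

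**Figure D5:**
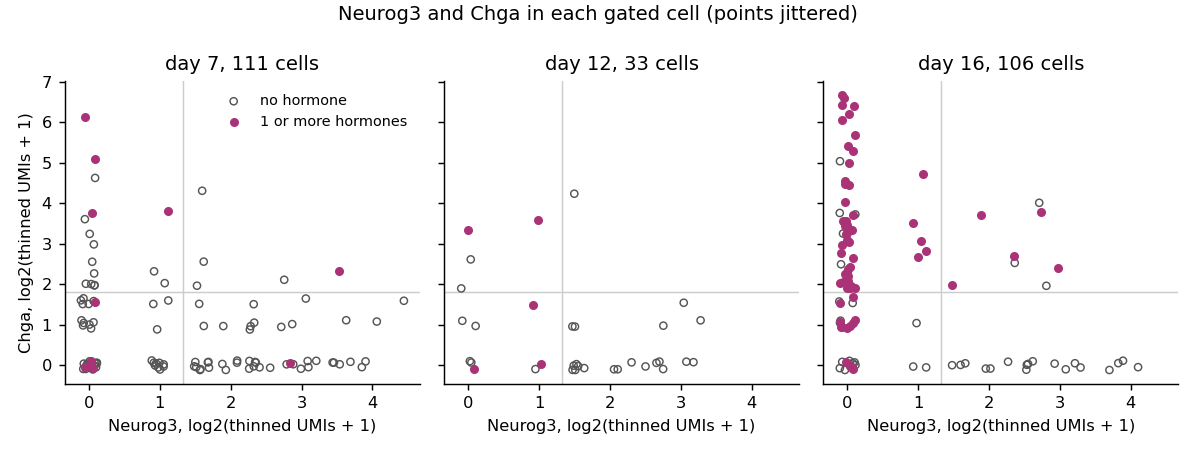
Neurog3 (horizontal) against Chga (vertical), both as log2 of thinned UMIs plus 1, in each gated cell of days 7, 12 and 16; points are jittered, filled points have 1 or more hormones, and grey lines mark the limits of 2 and 3 UMIs. Filled points gather at high Chga and no Neurog3 at day 16.

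Summed over days, the Neurog3 cells had 6643 CPM of the early progenitor list against 2586 in the Chga cells, and 1628 against 620 CPM of the cell cycle list. Granule and prohormone processing genes ran the other way, at 666 against 3427 CPM, as did ion channels (241 against 892 CPM) and peptide hormones (136 against 29940 CPM). These lists hold no gate gene. The Neurog3 cells were 45, 20 and 18 at days 7, 12 and 16 and the Chga cells 16, 4 and 51. The summed values therefore mix class with day.

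The Neurog3 cells themselves differed by day. Neurog3 was at 1719, 1779 and 2097 CPM in them and Sox4, an early factor of the lineage, at 3041, 3752 and 3010 CPM. Tff3, a secreted trefoil peptide of goblet cells, was at 488, 16.2 and 3639 CPM and had a UMI in 18 of the 18 cells at day 16. Fcgbp, a protein of goblet mucus, was at 11.3, 8.09 and 512 CPM. Tubb3, a neuronal tubulin, was at 398, 865 and 37 CPM, and Pcsk1n, an inhibitor of prohormone convertase 1, at 387, 356 and 6.17 CPM. The whole goblet list summed to 578, 97 and 4466 CPM and the granule list to 942, 744 and 154 CPM. Goblet genes were also higher in the other cells at day 16 (summed 1368, 778 and 5691 CPM), and their part in these values was not tested.

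The Chga cells likewise changed between libraries, at 2081, 2260 and 3827 CPM of the granule list and 1541, 2014 and 38584 CPM of peptide hormones. Sox4 was at 1200, 986 and 385 CPM in them. Isl1 was at 0, 41.1 and 509 CPM and Tac1 at 903, 370 and 2779 CPM. With 16, 4 and 51 cells, the early values rest on few.

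Across all measured genes, with at least 20 UMIs summed over the 2 libraries compared, 684 of 8257 genes (8.28%) were at least 2-fold higher in gated cells at day 16 than at day 7 and 629 (7.62%) at least 2-fold lower. At day 12 against day 7, 388 of 6756 (5.74%) were higher and 487 (7.21%) lower. The median log2 ratio was -0.08 at day 16 and -0.01 at day 12. The UMI minimum lets a low gene in only through the day on which it is high, so the counts by list below describe the members that passed it and are not support for a direction.

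Of the hormone list, 8 of 10 measured members were higher at day 16 and 1 (Pyy) was lower. In the granule and prohormone processing list, 10 of 13 were higher and 1 lower (median log2 1.82, against -0.37 for the same list in other cells). Cpe, a carboxypeptidase that trims prohormones, was at 163, 209 and 575 CPM at days 7, 12 and 16. The convertase Pcsk1 was at 91.9, 73.5 and 262 CPM and the granule membrane protein Ptprn2 at 93.1, 58 and 278 CPM. Pcsk1n was the lower one, at 381, 464 and 140 CPM. Serotonin synthesis and storage genes had 3 of 6 higher and 0 lower, with Ddc, the decarboxylase, at 116, 77.4 and 427 CPM and Gch1, of cofactor synthesis, at 63.6, 77.4 and 224 CPM, while Qdpr at 104, 73.5 and 184 CPM stayed under 2-fold. Slc18a1, a storage gene of the list, did not rise, at 60.1, 65.8 and 58.7 CPM. It had a thinned UMI in 18%, 21.2% and 15.1% of gated cells.

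Of the exocytosis genes 3 of 13 were higher and 0 lower. Cplx2, a regulator of vesicle fusion, was at 144, 139 and 180 CPM, Rph3al at 133, 155 and 123 CPM, Rab3c at 114, 159 and 117 CPM and Syt13 at 60.1, 50.3 and 94.2 CPM. These 4, the members with most UMIs, had UMIs in gated cells of every library and stayed under 2-fold between day 7 and day 16. Among ion channels 4 of 6 were higher and 0 lower. Scn3a was at 35.4, 11.6 and 235 CPM, Cacna2d1, a calcium channel subunit, at 64.8, 61.9 and 142 CPM, and Cacna1a at 70.7, 116 and 137 CPM. Of nutrient and neural receptors 4 of 5 were higher and 0 lower, led in UMIs by Ffar2 at 43.6, 31 and 166 CPM, while the glucose transporter Slc5a1 stood at 48.3, 27.1 and 64.3 CPM.

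Among endocrine transcription factors 7 of 18 were higher at day 16 and 1 lower. Isl1 was at 36.5, 69.6 and 358 CPM and Fev at 117, 77.4 and 214 CPM, whereas Nkx2-2 (107, 166 and 136 CPM) and Runx1t1 (141, 112 and 117 CPM) stayed under 2-fold. Pax6 was 20.5-fold higher, at 96.4 against 4.71 CPM (7.71 to 76.7), and had 2.67 against 0.0577 CPM in other cells. The early progenitor list had 1 higher and 5 lower of 12. Sox4 was at 1763, 2403 and 873 CPM and Gadd45a, a growth arrest gene and Neurog3 target, at 513, 820 and 224 CPM. Btg2, an antiproliferative gene, was at 937, 1281 and 1115 CPM. Sox4 was also lower in other cells at day 16, at 613, 867 and 196 CPM, whereas Gadd45a there was at 25.5, 33.1 and 27.3 CPM.

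Besides hormones, the genes furthest above day 7 at day 16 were set beside the other cells of the same libraries. Scin, an actin-severing protein gene (103 against 2.36 CPM), Rbp2 (227 against 5.89) and Fabp2 (155 against 7.07), carriers of retinol and fatty acids in enterocytes, and Fcgbp (161 against 3.54) were also higher in other cells of day 16, at 46.3 against 0.433, 260 against 13.3, 405 against 39.2 and 580 against 39.7 CPM. Rbp4 (652 against 22.4 CPM, 29.1-fold), the imprinted RNA gene Meg3 (103 CPM against 0 UMIs, at least 29.1-fold) and Ooep (56.5 against 2.36 CPM, 24-fold) were sparse in other cells, at 1.05 against 4.53, 0.32 against 0.0577 and 0.0581 against 0 CPM. Of these, Rbp4 was lower in the other cells at day 16 and Meg3 was higher, while Ooep stood near 0 in them on both days.

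The genes furthest below day 7 at day 16 were Xist, Neb, Pla2g2a, Nkd1, H2-Aa, Ifitm1, Gas5, Reg3b, Notum and Cd74, and all 10 were also lower in the other cells. Nkd1 and Notum, feedback inhibitors of Wnt signalling, were at 272 and 69.5 CPM at day 7 and at 3.32 and 2.22 CPM at day 16. Cd74, the invariant chain of class II antigen presentation, was at 632 and 22.2 CPM, and all 6 measured class II genes were lower (median log2 -4, against -3.51 in other cells). Reg3b, an antimicrobial lectin, was at 3717 and 114 CPM.

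At day 12 the differences from day 7 were smaller, and the 10 genes furthest above day 7 were higher in the other cells too. S100a6, a calcium-binding protein gene, was at 631 against 30.6 CPM (20.6-fold, 13.5 to 32.5) and Pkm, of glycolysis, at 685 against 34.2 CPM (20-fold, 13.5 to 30.8), beside 1897 against 189 and 488 against 33.8 CPM in other cells. Cfi, Clu, Cyr61, Ifitm1, Atf3, Fam46a, Cldn4 and Notum were 7.61- to 3.34-fold higher. Clu, a marker of injury-responsive epithelium, was at 464 against 61.3 CPM. On the lower side, Olfm4, a stem cell gene, had 0 UMIs at day 12 against 131 CPM at day 7 (at least 11.3-fold) and 10.2 against 244 CPM in other cells. Kcne3, a potassium channel subunit, had 0 UMIs against 134 CPM (at least 11.6-fold). Dmbt1, a mucosal scavenger receptor, was at 3.87 against 66 CPM in gated cells, while other cells had a ratio of 0.847. Phgr1, Rgcc, Rnf186, Cps1, Top2a, Aqp4 and Agpat5 were 7.62- to 5.18-fold lower. With 33 cells at day 12, 3 endocrine transcription factors of 14 were higher and 0 lower, 1 granule gene of 10 was higher and 1 lower, and 2 hormones of 8 were higher and 3 lower. Over all measured genes 5.74% were higher and 7.21% lower at day 12, so the granule counts stood near the common share.

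Genes of the deleted complex and its classical targets were read in the same cells. Of 8 measured PRC2 genes, 0 were 2-fold higher and 1 lower at day 16 (median log2 -0.34, against -0.32 in other cells). Over all measured genes 8.28% were higher and 7.62% lower. The 1 lower was Eed itself, at 53 CPM at day 7 and 25.5 at day 16, beside 54.4 and 26.6 CPM in other cells. Ezh2, the main methyltransferase, was at 100, 89 and 93.1 CPM and Suz12 at 134, 92.9 and 97.5 CPM. Cdkn2a, a CDK inhibitor locus repressed by PRC2, had 0, 0 and 13 UMIs in gated cells, the last being 14.4 CPM (7.67 to 24.6), beside 0, 1.27 and 27.1 CPM in other cells. The Hox list, genes of position along the body axis, summed to 110, 50.3 and 244 CPM in gated cells and to 16, 17.6 and 48.5 CPM in others. Hoxb4 made up 40.1, 19.3 and 21.1 CPM of it and Hoxa5 13, 7.74 and 14.4 CPM. Hoxa7 was at 5.89, 3.87 and 26.6 CPM and Hoxa9 at 7.07, 0 and 22.2 CPM. Of 6 Hox genes measured, 3 were higher at day 16 (Hoxa7, Hoxa9 and Hoxc9, the last at 0, 0 and 23.3 CPM). The 1 lower was Hoxb3, at 20, 3.87 and 7.76 CPM. Members outside these 6 were too sparse to read one by one.

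Cdkn1a and Cdkn1c, both CDK inhibitors, were higher in gated cells than in other cells on every day. Cdkn1a was at 396, 1056 and 897 CPM against 34.1, 60.7 and 93.5 CPM in other cells. Cdkn1c, which is imprinted, was at 275, 793 and 673 CPM against 36.4, 349 and 8.75 CPM. It had a thinned UMI in 44.1%, 66.7% and 50.9% of gated cells and in 6.34%, 40.8% and 2.38% of the others. The other cells of day 12 thus stood far above those of days 7 and 16. Immediate-early and stress genes, which can respond to cell dissociation, had 8 of 20 members higher and 1 lower at day 16 (median log2 0.95, against -0.03 in other cells). Fos, at 550, 766 and 1063 CPM, stayed under 2-fold between day 7 and day 16. The 8 included the heat-shock gene Hspa1a, at 37.7, 27.1 and 258 CPM. In other cells Hspa1a was at 76.9, 34.3 and 211 CPM, also higher at day 16 than at day 7. The part of this list in the other differences was not tested.

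Markers of other cell types were read in the gated cells beside the other cells. The 5 stem cell markers (Lgr5, Olfm4, Ascl2, Smoc2, Axin2) summed to 748, 623 and 354 CPM, below the 1088, 1139 and 783 CPM of other cells, and Lgr5 itself was at 133, 236 and 13.3 CPM against 198, 233 and 45.7 CPM. Not every gene of the stem cell list was below the other cells: Prom1, a membrane glycoprotein, was at 260, 340 and 192 against 228, 296 and 107 CPM, and Sox9, a crypt transcription factor, at 337, 402 and 82 against 262, 349 and 117 CPM. Ephb3, another member, stood further above them, at 108, 135 and 28.8 against 40.1, 42.1 and 14 CPM. Over the 21 genes of that list, 14 members were lower at day 16 and 0 higher (median log2 -1.5, against -1.21 in other cells). The 7 tuft markers gave 10.6, 7.74 and 7.76 CPM, against 23.6, 39.8 and 61.6 CPM in other cells, with Trpm5 and Rgs13 at 0 on all days. The 6 Paneth markers summed to 301, 1099 and 306 CPM, with 133 of the 150 Lyz1 UMIs of day 12 in 1 cell, against 6006, 1572 and 6338 CPM in other cells. The 6 enterocyte markers summed to 284, 186 and 718 CPM against 239, 277 and 1001 CPM, so that gated cells were above the others at day 7. Immune markers gave at most 14.4 CPM, against at most 8.37 CPM in other cells, with Csf1r at 0 on all days, and 1 cell of day 16 held 105 of the 122 Gzma UMIs and 52 of the 56 of Gzmb.

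The 7 goblet markers summed to 239, 132 and 1655 CPM in gated cells and 535, 585 and 3835 CPM in others, and at least 5 thinned UMIs of them were found in 3.6%, 0% and 21.7% of gated cells. Tff3 supplied most of the day 16 sum, at 1284 CPM with UMIs in 48.1% of gated and 16.5% of other cells, while Muc2, the main secreted mucin, was at 11.1 CPM against 283 CPM. Vim was the sole abundant stromal marker, at 96.6, 236 and 756 CPM, with Col1a1 and Col3a1 at 0 on all days. In the other cells it was at 98.4, 681 and 2.53 CPM, so the excess in gated cells was seen at day 16 alone. The part of these markers in the day differences was not tested.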

How the data were processed

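The 3 single-cell files of days 7, 12 and 16 hold whole-number UMI counts per gene and barcode for all barcodes, as deposited by the authors. Per the submitters' processing notes, Cell Ranger 3.0.2, STAR 2.5.3a, Bowtie2 2.3.4.3, SICER 0.0.1 and DESeq2 were applied in the series, on build mm9; their roles and the gene annotation are not given in the sources. The source label of these samples speaks of villus cells and their title of adult stem cells, and the sort is taken from the labels' protocol. The bulk and chromatin samples were not used here.

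Barcodes were kept with at least 2500 UMIs, 500 genes and at most 20% mitochondrial UMIs, and gated on the summed UMIs of 6 genes (at least 6, with at least 2 genes detected). For shares, the UMIs of each cell were drawn without replacement down to 2500 with a fixed seed. CPM values are UMIs summed over a group of cells per 1000000 UMIs of that group. Sums have exact Poisson 95% intervals, shares exact Clopper-Pearson intervals and ratios exact conditional binomial intervals, all for counting error only. A ratio against 0 UMIs is a bound computed with 3 UMIs per library. With 1 library per day there is no test. Genes entered a comparison with at least 20 summed UMIs, and a fold of 2 between days or 4 against other cells was counted. The counting was tested on simulated data.

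The members and gene lists were chosen with earlier results of these data known. Named genes are the gate and hormone genes, up to 4 members per list with most UMIs, Cdkn2a, Eed, Lgr5 and Olfm4, the 10 largest differences per direction between days (at least 50 UMIs in at least 10 cells, no cell over 50% of them) and the 15 largest ratios against other cells (at least 100 UMIs); mt-, Rpl, Rps, Gm and Rik names were left out, and 1 gene that the rule names is not reported here. Ddx3y, Lmx1a, Hhex, Fabp5, Ezh2, Muc2, Hoxb3, Hoxc9, Hspa1a, Ephb3, Slc18a1 and single members of the marker sets were named after their values were seen. So was Etv1, which is plotted only. Promoters were matched by symbol to a RefSeq table of GRCm38.p6 (5 of 5 found). Python 3.11.15, numpy 2.4.6, scipy 1.17.1, pandas 2.3.3 and matplotlib 3.10.9 were used. Alternatives covered the gate, cell filters, thinning, scaling, cell weights, the UMI minimum, the positive limits and the deepest cells.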

Additional observations from a re-analysis of the deposited data

How the results depend on the processing

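No paired analysis was possible because each day is 1 library. None of the recomputed values reversed its direction. The share of cells in the gate moved beyond its counting interval in 8 cases. At day 7 (2.9%) it was 1.83% with every cell thinned before gating, 1.61% with at least 5000 UMIs per cell, 3.52% with at most 10% mitochondrial UMIs and 2.09% without Chga and Chgb in the gate. At day 12 (0.708%) it was 0.407% thinned and 0.479% with at least 5000 UMIs, and at day 16 (3.8%) it was 9.68% with at most 10% mitochondrial UMIs and 2.61% without Chga and Chgb. A minimum of 50 summed UMIs, which admits fewer genes, gave 105 higher and 131 lower at day 12, 300 higher and 260 lower at day 16, and 147 genes at least 4-fold over other cells, against 388, 487, 684, 629 and 232. Without thinning, hormone-positive cells were 19.8%, 33.3% and 73.6%, at the greater depth of each cell. With Neurog3 called from 1 UMI, the Neurog3 cells of day 7 were 51.4%, and with Chga called from 5 UMIs the Chga cells were 8.11% at day 7 and 36.8% at day 16. The other 58 recomputed shares and counts that answer a comparison stayed within their limits, among them the 4-fold count over days 7 and 16 alone (310), an alternative chosen after seeing the data because day 12 has 33 gated cells. Of 200 recomputed list counts 184 stayed within 1.5 times, and of 115 single hormone shares 103 stayed within their interval. The cell with Sst at day 7 is lost under a gate of at least 10 UMIs, and without the 5% of cells with most UMIs.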
